A study of Mus musculus with 6 samples.

Results

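Hyaluronan is a large, unsulfated sugar polymer of the extracellular matrix, and the genes described here code for the proteins that make it, cut it, hold it in the matrix and bind it at the cell surface. They were picked by symbol from the deposited table: Cd44 and Hmmr, which code for hyaluronan receptors; Has1, Has2 and Has3, the hyaluronan synthases; Hyal1 and Hyal2, the hyaluronidases; and Vcan and Hapln1, which code for the proteoglycan versican and the link protein that fixes such proteoglycans to hyaluronan. All 9 symbols were found among the 49452 genes of the table. Cd44 drew attention because of its difference between the genotypes, and the others were listed beside it with results of that comparison known. The genotype differences of all 9 are therefore given as a description. Whether a member lay past the threshold of the fit over the whole table is stated only to place it among the other genes, and supports nothing by itself.

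RNA-seq was carried out on the ectoderm of forelimb buds from mouse embryos at E10.5, with 3 Sp8 null and 3 wild-type libraries. Sp8 codes for a transcription factor with zinc fingers that acts in limb ectoderm. Sp8 null embryos carried an allele called Sp8-Cre-ERT2 on both chromosomes and came from crosses of heterozygotes, while wild-type embryos came from C57BL/6 crosses, so the groups were not littermates. The labels give the C57BL6J background for both groups. Ectoderm was peeled off after trypsin (0.25%, 20 min), and both forelimbs of 1 embryo made 1 library, so each library is a separate embryo. Sp8 null embryo 1 and wild-type embryo 1 have sample names that start with 4 and the other libraries names that start with 5; what the number means is not stated.

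Synthases at the plasma membrane build hyaluronan from UDP-glucuronic acid and UDP-N-acetylglucosamine and push the chain out of the cell as it grows. CD44 is its main receptor at the cell surface and links it to the actin cytoskeleton through ezrin, radixin and moesin. In the limb bud CD44 is known as a protein of the apical ectodermal ridge, the thickened rim of ectoderm that secretes fibroblast growth factors, and forms of CD44 that carry heparan sulfate can bind such factors. HMMR is bound to the mitotic spindle as well as to hyaluronan. Versican and hyaluronan, joined by link protein, form swollen aggregates around cells.

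Every level below is in FPKM, a count of sequenced fragments corrected for transcript length and for the size of the library. Relative depth, read from the low values, was 0.844 to 1.03 times that of wild-type embryo 1, and 11835 to 12245 genes per library were at 1 FPKM or more. Sp8 itself was at 0.46 to 1.14 FPKM in Sp8 null and 8.35 to 13.5 FPKM in wild type, and each library followed its label. The tissue check held as well: Trp63, a master factor of stratified epithelium, was at 110 to 134 FPKM in Sp8 null and 124 to 144 FPKM in wild type. Of 12133 genes tested, 204 were called higher and 625 lower in Sp8 null (limma, Benjamini-Hochberg adjusted p under 0.05). Under median-of-ratios scaling 326 were higher and 547 lower, and under upper-quartile scaling 363 and 507.

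Cd44 (ENSMUSG00000005087; GRCm38, chromosome 2, 102811141 to 102901665, minus strand) was the member that the results turn on, and the 250 bases before its RefSeq start are shown first, beside those of Vcan and Hapln1, which neighbour each other on chromosome 13. The sequences are from RefSeq on GRCm38.p6, 5′ to 3′ on the strand of the gene, and capitals mark the GC box, the letters GGGCGG on either strand, which is the core of a well-known binding site of Sp family factors. RefSeq promoters were matched for 7 of the 9 members, all but Has2 and Has3. The RefSeq start of Hapln1 lies 840 bases inside the GENCODE gene whose span is given with its values, so its window is within that gene, and that of Hyal2 lies 1218 bases inside likewise; the start of Cd44 is the same in both.
Cd44, chr2:102901666-102901915, minus strand: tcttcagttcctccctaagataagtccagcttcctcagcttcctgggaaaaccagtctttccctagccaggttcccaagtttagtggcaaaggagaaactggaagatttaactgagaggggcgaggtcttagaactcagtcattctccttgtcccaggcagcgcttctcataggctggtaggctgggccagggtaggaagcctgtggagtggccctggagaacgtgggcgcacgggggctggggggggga
Vcan, chr13:89742513-89742762, minus strand: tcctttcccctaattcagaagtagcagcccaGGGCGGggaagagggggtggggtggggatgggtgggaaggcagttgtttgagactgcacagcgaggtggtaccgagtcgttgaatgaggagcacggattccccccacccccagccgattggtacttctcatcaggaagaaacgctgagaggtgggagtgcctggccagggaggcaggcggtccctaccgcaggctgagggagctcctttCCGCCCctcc
Hapln1, chr13:89540386-89540635, plus strand: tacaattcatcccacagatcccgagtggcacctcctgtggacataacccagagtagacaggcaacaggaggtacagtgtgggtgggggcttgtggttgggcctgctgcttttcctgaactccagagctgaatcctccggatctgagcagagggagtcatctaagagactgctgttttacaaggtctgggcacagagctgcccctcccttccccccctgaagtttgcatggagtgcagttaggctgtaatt

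The Cd44 window held none of the 3 motifs searched on both strands, the GC box, CACCC (the core of the GT or CACCC box) and TAATTA (a homeodomain core). Among 32536 promoter windows of 250 bases, 33.0% held at least 1 GC box, 52.1% CACCC and 4.8% TAATTA. The Vcan window held 2 GC boxes, which started 219 and 10 bases before the start site, and 4 CACCC matches. The Hapln1 window held no GC box and 1 CACCC match. GC content was 56.4% for Cd44, 62.4% for Vcan and 54.4% for Hapln1. Hyal1 had 2 GC boxes, which overlap each other by 1 base, Hyal2 and Hmmr had 1 each and Has1 had 0. These letter matches are descriptions of the windows, and none was tested for binding here.

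In wild-type ectoderm the matrix genes stood at the top of the group and the synthases at the bottom. Vcan had a mean of 87.9 ± 6.05 FPKM and Hapln1 of 76.5 ± 7.46 FPKM (SD, n = 3), and the ranges of the pair overlapped. Cd44 came next at 27.7 ± 2.95 FPKM, which was above the wild-type level of 83.5% of tested genes. Hmmr followed at 21.3 ± 1.59 FPKM and Hyal2 at 17.8 ± 0.995 FPKM. Hyal1 was at 6.13 ± 0.403, Has3 at 1.89 ± 0.327, Has2 at 0.708 ± 0.522 and Has1 at 0.108 ± 0.0396 FPKM (SD, n = 3 each). Apart from Vcan and Hapln1, no neighbours in this order overlapped in their ranges. In Sp8 null the order changed at 3 places. Hapln1 stood above Vcan, Has2 stood above Has3, and Cd44 dropped from the third place to the seventh, where its range overlapped those of Has2 above it and Has3 below it.

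**Figure D1:**
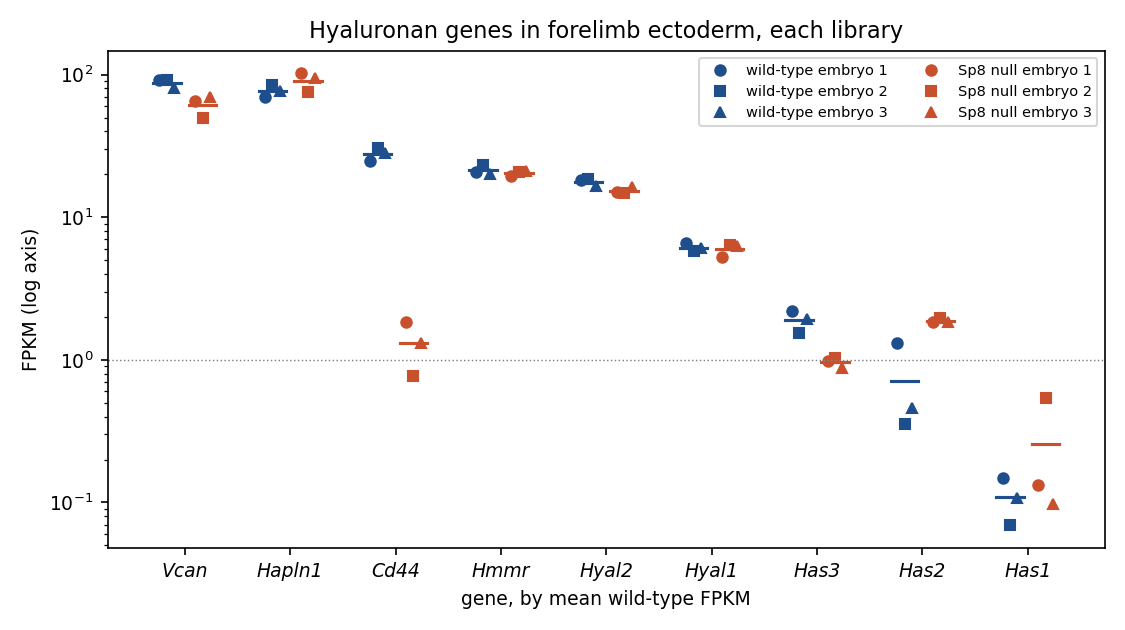
FPKM of the 9 genes in each of the 6 libraries, on a log axis, ordered by mean wild-type level; symbols mark the embryo number, short lines the group means, and the dotted line 1 FPKM. Cd44 shows the widest gap between the genotypes, Has3 and Has2 separate in opposite directions, and Hmmr and Hyal1 overlap.

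Of the 9 members, 8 had at least 1 FPKM in at least 3 libraries and were in the fit across the whole table. Cd44 and Has3 were called, both lower in Sp8 null, which is 2 of 8 against 6.83% of all tested genes called in either direction and 5.15% called lower. For 5 of the 8 (Cd44, Has2, Has3, Hyal2 and Vcan) the groups did not overlap, which held for 29.8% of tested genes. The median log2 fold change over the 8 was -0.13, and it was -0.06 over all tested genes. Since the members were chosen with this comparison known, nothing is read from these shares.

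Cd44 was at 1.84, 0.775 and 1.32 FPKM in Sp8 null embryos 1, 2 and 3, and at 24.6, 30.5 and 28.01 FPKM in wild-type embryos 1, 2 and 3. The groups lay far apart, with every wild-type library over 20 FPKM and every null library under 2 FPKM. Mean wild-type FPKM was 21.2 times the mean in Sp8 null. The difference in log2(FPKM + 1), a scale that compresses changes at low levels, was -3.66 (SE 0.17), the fourth largest fall among the 12133 tested genes. It lay between -4.37 and -3.48 over 15 alternative analyses, -4.37 being the value with a pseudocount of 0.1. The rank belongs to the main scale. Rspo2, Vwde and Fgf4 fell less than Cd44 there, but further with a pseudocount of 0.1 (-5.44, -5.75 and -6.25). From above 83.5% of tested genes in wild type, the mean of Cd44 came to lie above 7.52% of them in Sp8 null. A value per gene does not separate the 9 annotated transcripts of Cd44, so the forms with variable exons cannot be told from the standard form. In the authors' deposited table, on a scale of normalized read counts, the Cd44 mean was 2877 in wild type and 146.7 in Sp8 null, with a fold change of -5.72, nearer to 1 than the ratio of those means.

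Rspo2, which codes for a secreted amplifier of Wnt signalling, had the pattern most like that of Cd44 over the 6 libraries. Likeness was the root mean square difference between log2(FPKM + 1) values centred on the gene's mean, and it was 0.22 for Rspo2. Fam46a, Vwde, Bhlha9 and Fgf4 followed at 0.22, 0.23, 0.24 and 0.25. Mean FPKM in wild type was 14.0 for Rspo2, 14.1 for Fam46a, 11.4 for Vwde, 34.3 for Bhlha9 and 10.2 for Fgf4, and in Sp8 null 0.227, 0.113, 0.118, 2.21 and 0.0359 in the same order. Cd44 and Bhlha9 kept over 1 FPKM on average in Sp8 null, while Rspo2, Fam46a, Vwde and Fgf4 did not. The likeness belongs to the compressed scale. The ratio of mean wild-type to mean null FPKM was 21.2 for Cd44. It was 61.5 for Rspo2, 124 for Fam46a, 96.3 for Vwde, 15.5 for Bhlha9 and 285 for Fgf4.

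An apical ridge list was read beside Cd44. Of its 14 genes, 12 were tested, of which 11 were called lower, against 5.15% of all tested genes, and their median log2 fold change was -1.84. Sp8, the mutated gene, is on the list; without it 10 of 11 were called lower and the median was -1.72. The summed level of the list was 63.2 to 82.1 FPKM in Sp8 null and 294 to 313 FPKM in wild type. Fgf8, the fibroblast growth factor that marks the whole ridge, was at 0.46, 0.32 and 1.15 FPKM in Sp8 null embryos 1, 2 and 3 and at 36.0, 31.3 and 30.2 FPKM in wild-type embryos 1, 2 and 3. Sp8 null embryo 2 was the lowest of all libraries for both Cd44 and Fgf8. Of 11 markers of the ectoderm as a whole, all tested, Tfap2a rose (log2 fold change 0.52, limma adjusted p = 0.0163), Epcam was called lower, 9 were not called and the median was -0.08. The call of Tfap2a was lost in 5 of 15 alternative analyses, among them those without wild-type embryo 1 (adjusted p = 0.0582 in limma) and without wild-type embryo 3 (adjusted p = 0.0511 in limma). The summed level of these 11 genes was 604 to 728 FPKM in Sp8 null and 734 to 801 FPKM in wild type, so every null library was below every wild-type one. In bulk ectoderm, fewer ridge cells and less Cd44 RNA per cell cannot be told apart. Leukocytes also carry CD44. The summed level of 9 macrophage and leukocyte genes was 2.38 to 4.23 FPKM in Sp8 null and 1.43 to 2.77 FPKM in wild type; 1 of them, Cd68, reached the filter (1.29 to 2.38 FPKM over all libraries), and the pan-leukocyte gene Ptprc was at 0.217 FPKM or less. The part of such cells in the Cd44 values was not tested.

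**Figure D2:**
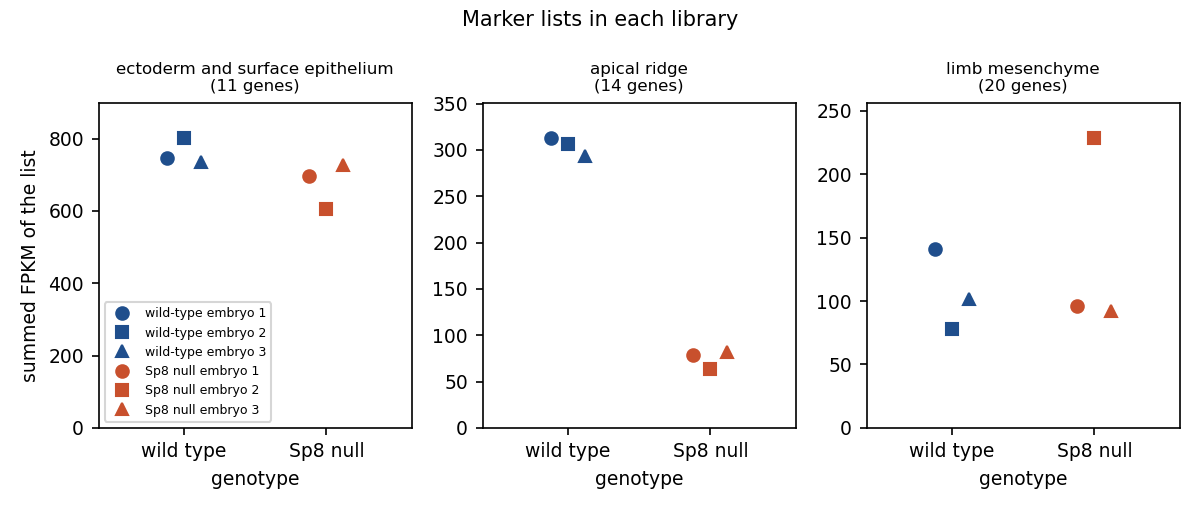
Summed FPKM of 3 marker lists in each library, on linear axes from 0, with symbols marking the embryo number. The ridge sum separates the genotypes (63.2 to 82.1 against 294 to 313), the ectoderm sums also do not overlap but differ less (604 to 728 against 734 to 801), and Sp8 null embryo 2 stands apart in the limb mesenchyme sum.

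Hmmr (ENSMUSG00000020330; chromosome 11, 40701395 to 40733422), the other receptor gene, was at 19.6, 20.7 and 21.1 FPKM in Sp8 null embryos 1, 2 and 3 and at 20.6, 23.1 and 20.1 FPKM in wild-type embryos 1, 2 and 3. The groups overlapped, and the log2 fold change was -0.05 (SE 0.08), with a 95% interval from -0.24 to 0.13; its sign turned under both other scalings. Mitosis genes were read beside Hmmr because of its place on the spindle. All 20 of a mitosis list were tested, with a median log2 fold change of -0.09. The called share was 5%, against 6.83% of all tested genes, and 19 were not called. Cdk1, the kinase that drives entry into mitosis, was the exception at -0.43 (limma adjusted p = 0.0377). That call was lost in 8 of 15 alternative analyses. In wild type, Cd44 was at 1.2 to 1.39 times the FPKM of Hmmr in the same library, and in Sp8 null at 0.0375 to 0.0942 times, so Cd44 was the more abundant of the pair in each wild-type library and Hmmr in each null one.

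Has3 (ENSMUSG00000031910; chromosome 8, 106870242 to 106884566), the main synthase transcript of wild-type ectoderm, was at 0.983, 1.03 and 0.871 FPKM in Sp8 null embryos 1, 2 and 3 and at 2.2, 1.55 and 1.94 FPKM in wild-type embryos 1, 2 and 3. Every null library was below every wild-type one. The mean in wild type was 1.97 times that in Sp8 null, and the log2 fold change was -0.56 (SE 0.12). The call was narrow: it was lost in 12 of 14 alternative analyses, among them all 6 that left out 1 library and both other scalings, with log2 fold changes from -0.64 to -0.48 in the fits without 1 library. Has3 shares 352 exon bases, 5.5% of its exons, with Chtf8 on the other strand, a gene at 30.0 to 35.5 FPKM, and the use of strand in counting is not given in the sources used here.

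Has2 (ENSMUSG00000022367; chromosome 15, 56665627 to 56694539), the synthase that the early embryo cannot do without, was at 1.84, 1.95 and 1.83 FPKM in Sp8 null embryos 1, 2 and 3. In wild-type embryos 1, 2 and 3 it was at 1.31, 0.357 and 0.46 FPKM. The null libraries lay close together and above all wild-type libraries, among which embryo 1 stood apart. The mean in Sp8 null was 2.65 times that in wild type, but with that spread the log2 fold change of 0.79 (SE 0.20) did not pass the threshold. Without wild-type embryo 1, mean Has2 was 4.59 times as high in Sp8 null as in wild type. That fit gave 1.03 on the log2 scale and passed. The 4 libraries whose names start with 5, which also lack wild-type embryo 1, gave 1.04 and passed too. Has2 did not pass in the other 12 of 14 alternative analyses. Their limma adjusted p ran from 0.052 (upper-quartile scaling) to 0.189 (no filter), so passing depended on leaving out wild-type embryo 1. Has2 shares 182 exon bases (4.3%) with Has2os, an antisense RNA, which was at 0.261 to 0.539 FPKM in Sp8 null and at most 0.108 FPKM in wild type; reads of the overlap cannot be assigned to a strand without stranded counting.

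Has1 (ENSMUSG00000003665; chromosome 17, 17843323 to 17855205) was under the filter everywhere. Its highest value, 0.539 FPKM, was in Sp8 null embryo 2, and the other libraries were at 0.0692 to 0.148 FPKM. Taken as a share of the summed FPKM of the 3 synthases, Has3 made up 72.0% ± 10.3 in wild type and 31.2% ± 1.93 in Sp8 null (SD, n = 3). Has2 made up 24.1% ± 10.2 in wild type and 61.0% ± 5.14 in Sp8 null. The sum itself overlapped between the genotypes, at 2.71 ± 0.859 FPKM in wild type and 3.09 ± 0.381 FPKM in Sp8 null (SD, n = 3). The ratio of Has3 to Has2 was 1.68 to 4.34 in wild-type libraries and 0.476 to 0.533 in Sp8 null libraries, so Has3 was the larger in each wild-type library and Has2 the larger in each null one.

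**Figure D3:**
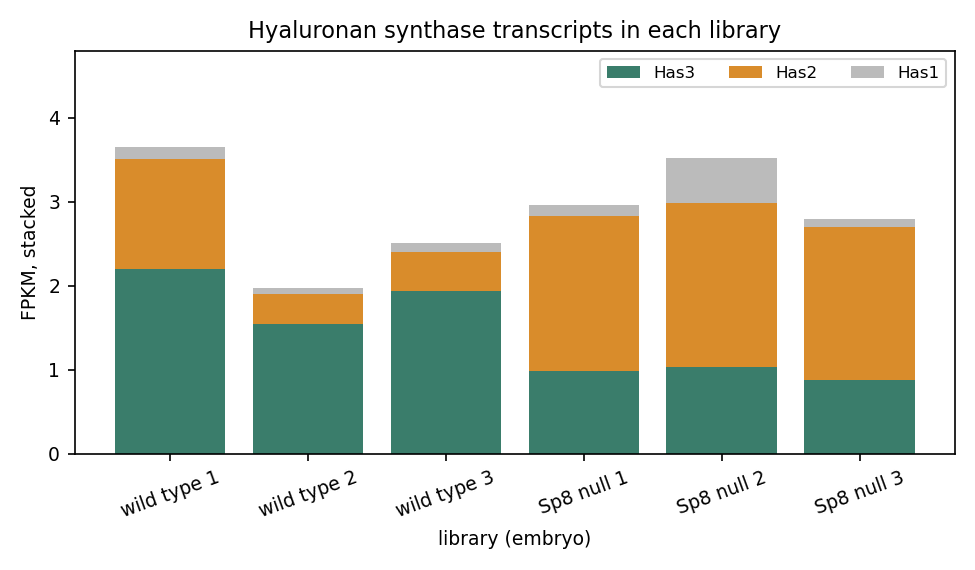
FPKM of Has3, Has2 and Has1 stacked from 0 in each library. Has3 is the larger part in the 3 wild-type libraries and Has2 in the 3 Sp8 null libraries, while the stacked heights overlap.

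Hyal2 (ENSMUSG00000010047; chromosome 9, 107567945 to 107572779), whose product is anchored at the cell surface and makes the first cuts in long chains, was at 15.0, 14.8 and 16.3 FPKM in Sp8 null embryos 1, 2 and 3 and at 18.1, 18.5 and 16.6 FPKM in wild-type embryos 1, 2 and 3. The groups came close without overlapping, and the log2 fold change of -0.20 (SE 0.08) was not called. Hyal1 (ENSMUSG00000010051; chromosome 9, 107576927 to 107581710), which codes for a lysosomal enzyme and lies 4.1 kb from Hyal2, was at 5.3, 6.37 and 6.31 FPKM in Sp8 null and at 6.55, 5.75 and 6.07 FPKM in wild type. The groups overlapped, and the log2 fold change was -0.03 (SE 0.10), with a 95% interval from -0.26 to 0.20 and a sign that turned under both other scalings. The value of Hyal1 is uncertain, since 50.8% of its exon bases are shared with Naa80 on the same strand, a gene at 5.67 to 8.82 FPKM. Hyal2 made up 70.2% ± 2.16 of the summed FPKM of Hyal1, Hyal2 and Hyal3 in Sp8 null and 72.3% ± 0.523 in wild type (SD, n = 3).

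Vcan (ENSMUSG00000021614; chromosome 13, 89655312 to 89742509, minus strand) and Hapln1 (ENSMUSG00000021613; 89539796 to 89611652, plus strand) lie 43.7 kb apart, with their 3′ ends facing each other. Vcan was at 65.8, 49.4 and 69.7 FPKM in Sp8 null embryos 1, 2 and 3 and at 90.9, 91.9 and 80.9 FPKM in wild-type embryos 1, 2 and 3. All null libraries were below all wild-type ones, but the log2 fold change of -0.52 (SE 0.13) did not pass the threshold. It did not in any of 15 alternative analyses (-0.61 to -0.37). The authors' deposited comparison gave Vcan a fold change of -1.37 and a p-value of 2e-06, from a test that is not described. Hapln1 was at 102, 74.9 and 95.4 FPKM in Sp8 null and at 69.2, 84.1 and 76.2 FPKM in wild type, with overlapping groups and a log2 fold change of 0.24 (SE 0.13) that was not called. Sp8 null embryo 2 was the lowest of its group for both genes. The ratio of Vcan to Hapln1 within a library did not overlap between the genotypes: it was 0.645, 0.66 and 0.731 in Sp8 null and 1.31, 1.09 and 1.06 in wild type.

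Mesenchyme under the ectoderm also expresses Vcan and Has2, so markers of that tissue were read beside the matrix genes. Of 20 limb mesenchyme genes, 14 were tested, 1 (Lmx1b, log2 fold change 1.07, limma adjusted p = 0.0166) was called higher and 0 lower, and the median was 0.24. The called share was 7.14%, against 6.83% of all tested genes in either direction and 1.68% called higher. The call of Lmx1b was lost with no filter (limma adjusted p = 0.0817) and without wild-type embryo 2 (0.0705) or 3 (0.0563). At an unadjusted p under 0.05 there were 3, Lmx1b and Twist2 higher and Pdgfra lower. No share of all tested genes is given at that threshold, so nothing is read from the 3. No gene of the list was at 0 in all libraries. Their summed level was 91.9 to 228 FPKM in Sp8 null and 77.7 to 141 FPKM in wild type, with the highest sum in Sp8 null embryo 2 and, among wild types, in embryo 1. Prrx1, a defining gene of limb mesenchyme, was at 53.3 FPKM in Sp8 null embryo 2 and at 11.96 to 13.6 FPKM in the other null libraries. Has2 was within 1.83 to 1.95 FPKM in all 3 null libraries, while in wild type the library with the highest mesenchyme sum also had the highest Has2. That library, embryo 1, also had the highest sum of 8 erythroid genes, at 422 FPKM; the sum was 36.4 FPKM in wild-type embryo 2, 11.7 FPKM in wild-type embryo 3 and 62.0 to 162 FPKM in Sp8 null. The part of mesenchymal or blood RNA in the values of Has2, Vcan and Hapln1 was not tested.

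The rest of the pathway was read from 6 lists of other genes, with 64 members, of which 35 were tested. Hk2, Adamts20, Adamts5 and Tmem2 were called, all lower in Sp8 null; that is 4 of 35, or 11.4%, against 6.83% of all tested genes. The median log2 fold change over the 35 was -0.09. The other 31 were not called. Adamts20 and Adamts5 reached 1 FPKM in the wild-type libraries only, so both entered the fit through that group alone. With no filter, Adamts20 was still called (limma adjusted p = 0.0137) and Adamts5 was not (0.0966).

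Hk2, a hexokinase that feeds glucose into glycolysis and the making of sugar nucleotides, was at 38.7, 33.2 and 40.2 FPKM in Sp8 null embryos 1, 2 and 3 and at 115, 119 and 87.2 FPKM in wild-type embryos 1, 2 and 3. It fell 2.87-fold by mean FPKM, or by 1.49 on the log2 scale (SE 0.13; limma, adjusted p = 0.000982). The other 9 precursor genes were not called, among them Ugdh, which makes UDP-glucuronic acid (log2 fold change -0.06), and Uap1, which makes UDP-N-acetylglucosamine (-0.07). The lowest wild-type library for Hk2, embryo 3, was still above every Sp8 null library.

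Adamts20, which codes for a secreted protease of the family that cuts versican, was at 0.459, 0.317 and 0.438 FPKM in Sp8 null embryos 1, 2 and 3 and at 3.01, 3.32 and 2.4 FPKM in wild-type embryos 1, 2 and 3. It fell 7.18-fold by mean FPKM, or by 1.47 on the log2 scale (SE 0.13; limma, adjusted p = 0.000936). Adamts5, a further versican-cutting protease, was at 1.33 ± 0.118 FPKM in wild type and fell to 0.58 ± 0.128 FPKM in Sp8 null (SD, n = 3; a log2 difference of -0.56 with an adjusted p of 0.0371 in limma). Adamts1 was not called (log2 fold change -0.27, limma adjusted p = 0.196), and Adamts4, Adamts9 and Adamts15 were under the filter. The call of Adamts5 was lost in 12 of its alternative analyses, while Hk2 and Adamts20 were called in every one that tested them.

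Tmem2 (now Cemip2), which codes for a transmembrane protein reported to cut hyaluronan at the cell surface, was at 11.5, 9.52 and 12.6 FPKM in Sp8 null embryos 1, 2 and 3 and at 16.3, 16.8 and 17.3 FPKM in wild-type embryos 1, 2 and 3. It fell by 0.55 on the log2 scale (SE 0.10; limma, adjusted p = 0.0241), and the call was lost in 7 of its 15 alternative analyses. Hexa and Gusb, which code for lysosomal enzymes that take the fragments apart, had log2 fold changes of -0.37 and -0.29 and were not called. The other hyaluronidase family genes Hyal4, Hyal5, Hyal6 and Spam1 were listed at 0 in all 6 libraries.

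Of the 14 tested partners of CD44, 0 were called in limma, against 6.83% of all tested genes. At an unadjusted p under 0.05 there were 4, 3 of them lower and 1 higher. At that threshold 3 of 4 hyaluronan breakdown genes and 1 of 20 mitosis genes were lower. Of 11 ectoderm markers, 2 were higher and 4 lower. No share of all tested genes is given there, so nothing is read from these counts. Ezr, Rdx and Msn, for ezrin, radixin and moesin, had log2 fold changes of -0.32, -0.14 and -0.07. Adam10 and Adam17, for proteases that shed CD44 from the surface, were at -0.20 and -0.21. Esrp1 and Esrp2, for epithelial splicing factors that favour the inclusion of variable Cd44 exons, were at -0.09 and -0.01, and Esrp1 was at 50.4 to 63.0 FPKM in Sp8 null and 54.7 to 64.9 FPKM in wild type. Stab1, a scavenger receptor gene, was the one other receptor tested (log2 fold change -0.02), and the lymphatic hyaluronan receptor gene Lyve1 was listed at 0 in all 6 libraries. Of the link and binding protein genes Tnfaip6, Itih5 and Habp4 were tested and not called (log2 fold change 0.40, 0.27 and 0.10).

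**Figure D4:**
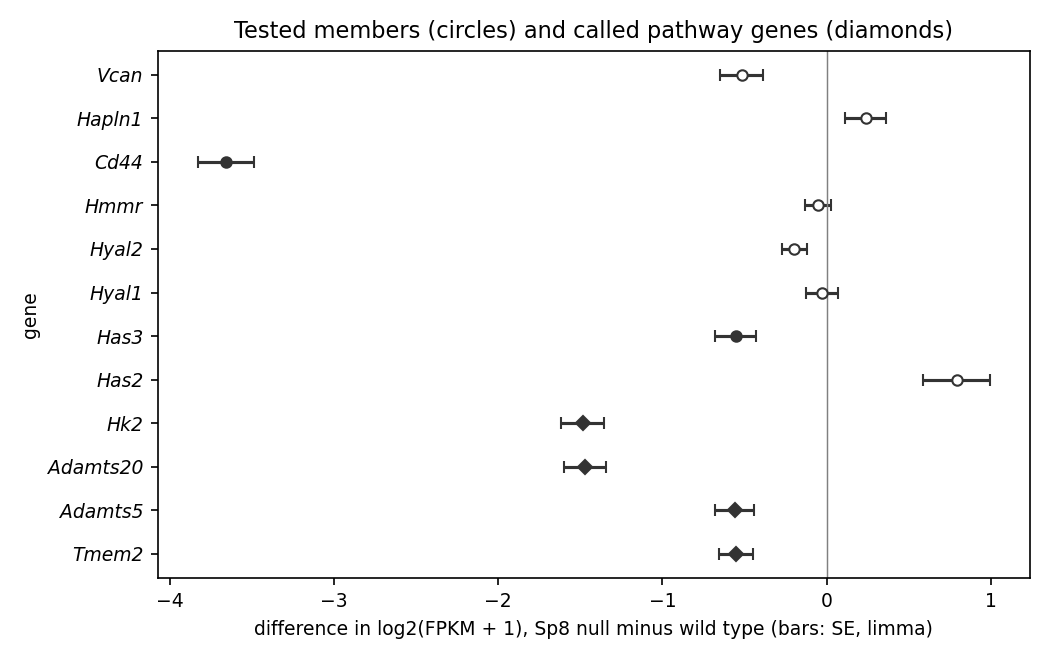
Difference in log2(FPKM + 1) between Sp8 null and wild type (points) with the standard error from limma (bars), for the 8 tested members (circles) and the 4 called genes of the pathway lists (diamonds). Filled symbols passed an adjusted p of 0.05; Cd44 at -3.66 lies beyond all others, and Has2 at 0.79 and Hapln1 at 0.24 are the ones above 0.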

How the data were processed

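A single table of the whole series was used. The authors deposited FPKM for each library with a status per estimate, and gene models were those of Ensembl build 87, per the file headers. TopHat2, SAMtools, Cufflinks, FastQC and DESeq2 are named with GRCm38 in the submitters' processing notes, with no role; whether strand was used in counting, and how libraries were scaled, are not given in the sources used here. The deposited group means are a normalized signal on a scale of read counts, and the deposited fold change is a signed score. The test behind the deposited p-value is not described in the file headers. These columns only describe the authors' comparison. The deposited p was listed as 0 for Cd44 and Has3 (fold change -1.79 for Has3). It was 2e-06 for Vcan, 0.00973 for Has2 (fold change 1.53) and 0.0163 for Hyal2 (fold change -1.13). For Hmmr, Has1, Hyal1 and Hapln1 it was 0.115 to 0.801.

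The 12133 genes that reached 1 FPKM in 3 or more libraries were fitted as log2(FPKM + 1) with limma 3.58.1 in R 4.3.3, genotype as the only term and a mean-variance trend. P-values were two-sided and adjusted by Benjamini-Hochberg over all tested genes, and a gene is called at an adjusted p under 0.05. The script was tested on simulated data. Groups came from the sample titles. Depth is known only in relative terms, from the commonest ratio of low FPKM values, so no counting interval is given. Alternatives were another pseudocount, filters, scalings, estimates without the status OK left out, each library left out, the embryo number as a block and the number that opens each sample name as a covariate. An added analysis, chosen after seeing the data, used only the 4 libraries whose names start with 5. Coordinates and exon overlaps are from GENCODE M21 (GRCm38).

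The 9 members and all lists were chosen with earlier results of these data known. Named genes were the members, Sp8, Fgf8, Trp63, every called gene of the 6 pathway lists, the gene of smallest p in the mitosis list and in each marker list, and the 5 genes most like Cd44; others named as list members were picked for their role, after their values were seen. Besides those in the report, the smallest p belonged to Egfl7 in the endothelial list (log2 fold change 0.15, limma adjusted p = 0.595), Cd68 in the macrophage list (0.21, 0.51) and Alas2 in the erythroid list (0.30, 0.636).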

Additional observations from a re-analysis of the deposited data

How the results depend on the processing

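Against 829 called genes, 342 were called with all detected genes tested (no filter), 545 with the number that opens the sample name as a covariate, 251 with only the 4 libraries whose names start with 5, and 316 to 642 with 1 library left out, the lowest being without wild-type embryo 2; fewer samples enter those fits. With the embryo number as a replicate block 328 were called, of which 312 were among the 829. The numbers did not pair the samples (correlations of the deviations of same-numbered libraries -0.16, -0.14 and -0.07), and of the members only Has3 lost its call under the block. The count over the 6 pathway lists was 4. It was 2 with no filter, 2 at a mean of at least 5 FPKM, where Adamts5 and Adamts20 are not tested, 2 with the replicate block, 2 with only the names that start with 5, and 2 to 3 with 1 library left out.

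Over the 26 tested genes that the text names by rule, 383 values were recomputed: 322 kept direction and call, 47 kept the direction but lost the call, 2 passed newly and 12 changed sign. All sign changes were in genes that were not called. The log2 fold change became positive for Hmmr under median-of-ratios scaling (0.018), upper-quartile scaling (0.038) and without wild-type embryo 2 (0.0029), and was as low as -0.092 with 1 library left out. For Hyal1 it did so under both scalings (0.035 and 0.054), with only the names that start with 5 (0.087) and without Sp8 null embryo 1 (0.044) or wild-type embryo 1 (0.013), and was as low as -0.069 with 1 library left out. For Trp63 it did so under both scalings (0.0003034 and 0.021) and without Sp8 null embryo 2 (0.0092; as low as -0.13 without another library), and Egfl7 turned to -0.0022 with only the names that start with 5. The cause was not tested. Fold changes of genes near 1 FPKM, such as Has2, Has3 and Adamts20, depend on the pseudocount: at 0.1 they were 1.47, -0.90 and -2.57.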

Other observations

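Of the 64 genes in the pathway lists, 29 stayed under the filter, and 11 of these were listed at 0 in all 6 libraries. For 7 of the 29, or 24.1%, the groups did not overlap. The 11 genes at 0 cannot separate, so this share cannot be compared with that of the tested genes. No test was run on the 29. Cd74, which codes for the invariant chain of MHC class II and a partner of CD44 in leukocytes, was at 0.874, 0.824 and 1.36 FPKM in Sp8 null embryos 1, 2 and 3 and at 0.184, 0.308 and 0.129 FPKM in wild-type embryos 1, 2 and 3. Beside it, the summed level of the 9 macrophage and leukocyte genes was 2.38 to 4.23 FPKM in Sp8 null and 1.43 to 2.77 FPKM in wild type. Of these 9, Tyrobp was at 0.377 to 0.826 FPKM in Sp8 null and 0 to 0.192 FPKM in wild type. Cx3cr1 was at 0.0752 to 0.196 FPKM in Sp8 null and 0 to 0.0476 FPKM in wild type. The groups overlapped for the rest of the list. The part of such cells in the value of Cd74 was not tested. Layn, which codes for the hyaluronan receptor layilin, was at 0.717 to 1.32 FPKM in Sp8 null and 0.501 to 0.714 FPKM in wild type. Hapln3, a further link protein gene, was at 0.191 to 0.414 FPKM in Sp8 null and 0.528 to 0.701 FPKM in wild type. Adamts15, a versican-cutting protease gene, was at 0.4 to 0.536 FPKM in Sp8 null and 0.178 to 0.256 FPKM in wild type, opposite in direction to Adamts20 and Adamts5. Tlr2 and Cemip were lower and Ncan higher in every Sp8 null library. These genes were singled out after their values were seen.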
